A study of Mus musculus with 4 samples.

Results

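The cytosolic ribosomal protein genes code for the proteins of the large and small subunits of the ribosome outside mitochondria. They were taken as the genes whose symbol begins with Rpl or Rps and a digit, together with Rplp0, Rplp1, Rplp2 and Rpsa. The S6 kinase genes, Rps19bp1 and symbols marked as pseudogene rows were left out. This gave 85 of 23366 genes, of which 52 are named for the large and 33 for the small subunit. The rule used names alone and no measured value. Of these, 82 averaged 1 FPKM or more across the 4 libraries and are called measured; FPKM are fragments scaled by transcript length and by the mapped fragments of the library. They comprise 77 standard subunit genes (46 large, 31 small) and 5 paralogs, which are related copies with a symbol of their own. The 3 members below the filter were the paralogs Rpl3l, Rpl10l and Rpl39l, all under 0.2 FPKM in each library.

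RNA was sequenced from 4 cultures of immortalized mouse embryonic fibroblasts, 1 library each. They carried ectopic Myc, ectopic MycN, a protein named Minimal Myc, or an empty vector. All 4 had received adenoviral Cre recombinase and a recovery given as 48 without a unit, and per the series design the cells with vector alone have Myc deleted. Which Myc allele the cells carried and how the Minimal Myc protein was built are not stated in the labels, nor whether a culture is a clone or a pool. Cre was delivered to all groups, so no library here shows cells without it. All 10 fibroblast markers checked, among them Col1a1 and Pdgfrb, were at 1 FPKM or more in every library. None of 6 epithelial and 4 endothelial markers reached 1 FPKM, while 1 of 5 immune markers (Cd68), 1 or 2 of 4 muscle markers and 3 of 4 neural markers did. The summed level of the muscle markers was 14.4 to 19.9 FPKM and that of the neural markers 22.6 to 35.2 FPKM, against 1689.5 to 2298 FPKM for the fibroblast markers. Their part in the values of ribosomal protein genes was not tested.

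A ribosome reads messenger RNA in its small subunit and joins amino acids in its large subunit. Each subunit is built in the nucleolus from ribosomal RNA and from ribosomal proteins, most of which are present once per ribosome. Their genes are among the most strongly expressed of any growing cell, and their messages carry a short run of pyrimidines at the very start, the terminal oligopyrimidine tract (TOP), through which growth signals set their translation. Myc and MycN are transcription factors that bind, with Max, the E-box sequence CACGTG. Genes for making ribosomes are classic targets of both.

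RefSeq start windows (build GRCm38.p6, 250 bases before to 50 after each annotated start) were found for 64 of the 85 members, in 76 windows. The FPKM were made on mm9 and no position was converted between builds. A TOP was read as a C at the first transcribed base followed by at least 4 bases that are each C or T. It was present in 13 of 76 member windows (17.1%) and in 2.51% of all 32851 windows. The following 30-base windows are centred on the start, 5′ to 3′ on the coding strand, with the tract in capitals; they show the sequence feature by which these genes are known as a class.
Rps6 (chr4:86857353-86857382, minus strand): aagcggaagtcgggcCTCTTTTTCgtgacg
Rpl35 (chr2:39005117-39005146, minus strand): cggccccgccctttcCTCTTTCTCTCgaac
Rpl15 (chr14:18270972-18271001, minus strand): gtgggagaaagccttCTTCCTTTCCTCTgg
Rps18 (chr17:33955651-33955680, minus strand): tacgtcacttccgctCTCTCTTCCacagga
Rpl28 (chr7:4792950-4792979, plus strand): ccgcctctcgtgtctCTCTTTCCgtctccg
Rplp2 (chr7:141447636-141447665, plus strand): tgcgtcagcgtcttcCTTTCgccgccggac
Rpl35a (chr16:33056467-33056496, plus strand): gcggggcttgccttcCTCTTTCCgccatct
An annotated start can lie a few bases from the true one. In 31 of 76 member windows, a C followed by at least 4 such bases lay within 5 bases of the annotated start. The same held for 18.3% of all windows. Such a C can lie inside a longer pyrimidine run that begins further upstream.

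The E-box, whose letters read the same on both strands, stood in 8 of 76 member windows (10.5%), from 6 genes, and in 7.15% of all windows. These are shown because it is the sequence that Myc and MycN bind, with the 6 letters in capitals in 30 bases of context.
Rpl23 (chr11:97782425-97782454, minus strand): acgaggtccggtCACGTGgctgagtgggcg
Rpl19 (chr11:98026679-98026708, plus strand): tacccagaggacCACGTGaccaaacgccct
Rps19 (chr7:24884781-24884810, plus strand): tggagccgcggcCACGTGcgagcggcaggc
Rpl34 (chr3:130730536-130730565, minus strand): cacctaacttctCACGTGacgttcctaccg
Rpl14 (chr9:120571337-120571366, plus strand): ccaagctcactgCACGTGtctgaggagaag
Rpl13a (chr7:45128928-45128957, minus strand): cgctccgaaaccCACGTGacatcccgcccc
The letters CCGGAAG, the core bound by ETS factors, stood on either strand in 27 of 76 member windows (35.5%), against 8.86% of all windows. A match is a description of letters and no sign of binding.

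The genes were already abundant without an added Myc protein. The median standard gene stood at 1125 FPKM in Myc, 808 in MycN, 928 in Minimal Myc and 506 in vector. All 82 measured members together made up 20.8% of the summed FPKM of the 11640 genes measured in Myc, 18.7% in MycN, 17.7% in Minimal Myc and 15.5% in vector. FPKM are per length, so this is a share of transcripts and not of reads. The sum of the members in Myc was 2.15-fold that in vector. The sum over all genes measured was also higher, at 520918 FPKM in Myc and 325658 in vector. In bulk RNA, fewer cells of a kind and less RNA per cell cannot be told apart.

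**Figure D1:**
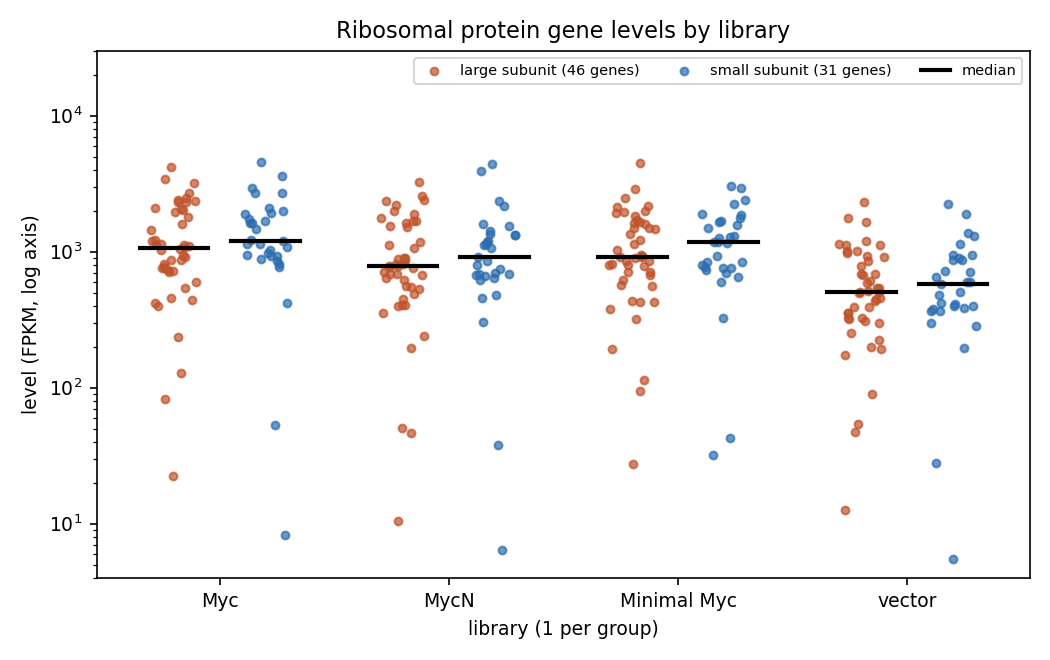
Level of each standard ribosomal protein gene (FPKM, log axis) in the 4 libraries, 1 point per gene, with large subunit genes in orange-red, small subunit genes in blue and black bars at the medians. Both subunits lie higher in the libraries with a Myc protein than in vector, and the large subunit medians run from 1064 FPKM in Myc to 502 in vector.

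Several facts of the libraries bear on every value here. Genes in general were higher with a Myc protein than with vector in unscaled FPKM: the median difference of log2(FPKM + 1) over 11640 genes was 0.47 with Myc, 0.42 with MycN and 0.47 with Minimal Myc. Vector also held far more of a small RNA gene that was left out of the genes measured, Mir5109 (6331 FPKM in Myc, 26319.8 in MycN, 7679.9 in Minimal Myc and 185861 in vector), and more of the nuclear RNA Malat1 (124 FPKM in Myc, 192 in MycN, 64.0 in Minimal Myc and 381 in vector). Their part in the differences of ribosomal protein genes was not tested. Myc itself was 141 FPKM in Myc, 4.36 in MycN, 32.6 in Minimal Myc and 22.2 in vector, and Mycn was 0.275 FPKM in Myc, 178 in MycN, 95.9 in Minimal Myc and 0.390 in vector. FPKM of a whole gene do not tell which exons the Myc reads of vector came from, so they are no check of the deletion. Depth is unknown for every library, and with 1 library per group no difference has a replicate check, a test or a p-value. Differences below are of log2(FPKM + 1), where 1 is 2-fold.

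Against vector, every measured ribosomal protein gene was higher in Myc and in Minimal Myc, and 78 of 82 were higher in MycN. At least 2-fold higher were 55 of 82 in Myc (11.2% of all genes measured), 10 in MycN (7.65% of all genes) and 27 in Minimal Myc (13.6% of all genes). Lower by 2-fold were 0 members in any of the 3, against 1.56%, 1.86% and 1.68% of all genes. Higher by any amount were 83.5%, 81.8% and 83% of all genes, so the sign alone says little about these genes. The median member differed by 1.15 with Myc, 0.71 with MycN and 0.91 with Minimal Myc. Less the median of all genes, these were 0.68, 0.29 and 0.44. Set beside the 715 genes that averaged 100 FPKM or more, which are closer to them in level, they were 0.40, 0.23 and 0.18. The 3 comparisons share the vector library. Counted from the median of all genes, 6 members were 2-fold higher in Myc (1.87% of all genes), 0 in MycN (1.86%) and 5 in Minimal Myc (3.71%). In the scaled FPKM that the authors deposited, 82 were 2-fold higher in Myc (76.8% of all genes), 51 in MycN (26.7%) and 73 in Minimal Myc (32.7%).

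The members differed from vector by similar amounts. Among the 77 standard genes the SD of the difference was 0.24 with Myc, 0.30 with MycN and 0.31 with Minimal Myc. Over all genes, many of which are far less abundant, it was 0.57, 0.57 and 0.66. Over the 715 genes of at least 100 FPKM it was 0.70, 0.65 and 0.70, with single genes as far out as 9.96, 10.2 and 10.0. Quartiles, which weigh such genes less, were closer in width. The middle quartiles of the standard genes ran from 0.95 to 1.25 with Myc, 0.51 to 0.87 with MycN and 0.73 to 1.10 with Minimal Myc. Those of the 715 genes ran from 0.40 to 1.04, 0.23 to 0.74 and 0.51 to 0.98. Myc was the library with the highest level for 60 of 82 members, Minimal Myc for 20, MycN for 2 and vector for 0. The highest library was not counted over all genes. Of those, 83.5% were higher in Myc than in vector and 56.4% were lower in MycN than in Myc, so part of this order is shared by genes in general. Rps28, which lines the exit of the mRNA channel, was highest in MycN.

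Large and small subunit genes differed from vector by the same amount to within a few hundredths of a log2 unit. In Myc the large subunit median was 1.16 and the small subunit median 1.16, in MycN 0.72 and 0.72, and in Minimal Myc 0.90 and 0.94. At least 2-fold higher than vector were 30 of 46 large and 23 of 31 small subunit genes in Myc (11.2% of all genes). In MycN they were 8 and 2 (7.65% of all genes), and in Minimal Myc 16 and 9 (13.6% of all genes). The small subunit count in MycN is no higher a share than that of all genes. Large subunit genes held 56.4% of the summed FPKM of standard genes in Myc, 56.3% in MycN, 58.0% in Minimal Myc and 57.5% in vector. How far such shares vary between cultures of 1 kind is not known from these data.

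**Figure D2:**
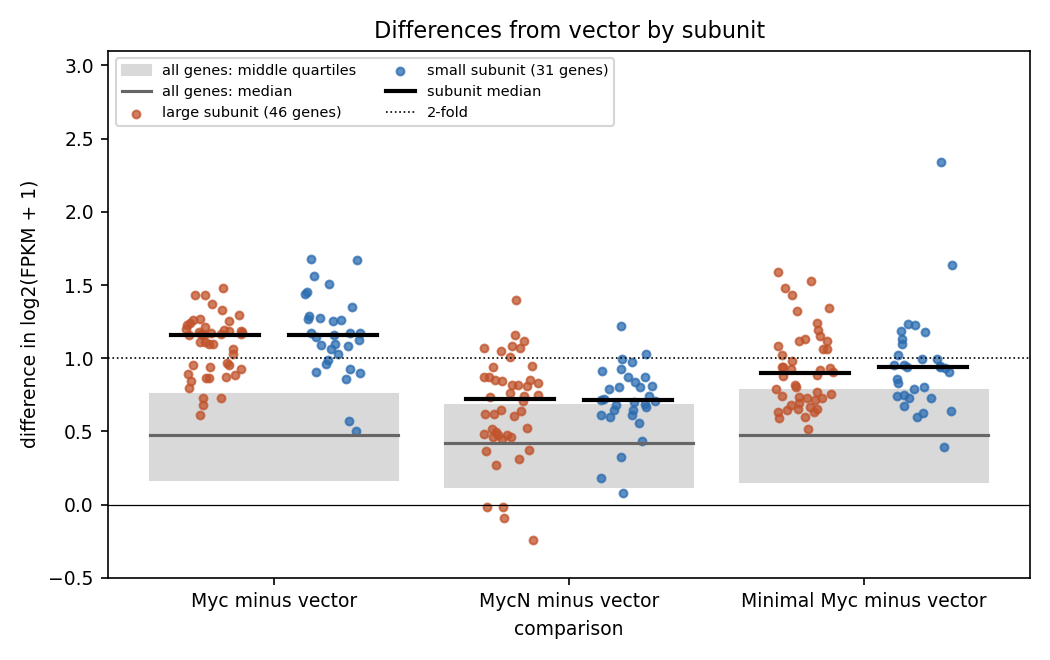
Difference from vector in log2(FPKM + 1) of each standard ribosomal protein gene in Myc, MycN and Minimal Myc, with subunit medians as black bars, the median of all genes as a grey line and their middle quartiles as a grey box. The subunit medians nearly coincide in each comparison and lie above the all-gene median of 0.47, 0.42 and 0.47, with MycN nearest to it.

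Within the large subunit, Rpl5 and Rpl11 form a particle with 5S ribosomal RNA before they join the ribosome, and as a free particle they bind the p53 inhibitor Mdm2. Rpl5 was 538 FPKM in Myc, 408 in MycN, 423 in Minimal Myc and 223 in vector. Rpl11 was 1805 FPKM in Myc, 1173 in MycN, 1467 in Minimal Myc and 669.5 in vector. Both were thus highest in Myc, next in Minimal Myc and lowest in vector, with differences from vector of 1.27, 0.87 and 0.92 for Rpl5 and 1.43, 0.81 and 1.13 for Rpl11 in Myc, MycN and Minimal Myc. Of the fixed genes around p53, Mdm2 was 20.5 FPKM in Myc, 16.7 in MycN, 21.5 in Minimal Myc and 13.8 in vector, and the p53 target Cdkn1a, a cell cycle inhibitor, was 9.92 FPKM in Myc, 16.5 in MycN, 8.18 in Minimal Myc and 25.0 in vector. Cdkn1a was lower than vector in all 3 libraries while Rpl5 and Rpl11 were higher. Trp53, the p53 gene, was 138, 111 and 98.4 FPKM in Myc, MycN and Minimal Myc, against 58.4 in vector, and Ccng1, another p53 target, differed from vector by 0.57, -0.25 and 0.79.

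The stalk recruits elongation factors to the large subunit and consists of Rplp0 with the paired proteins Rplp1 and Rplp2, on a base formed with Rpl12. Rplp1, the most abundant member by mean level, was 4163 FPKM in Myc, 3232 in MycN, 4457 in Minimal Myc and 2320.2 in vector. Rplp0 was 2702 FPKM in Myc, 2400.0 in MycN, 1970.3 in Minimal Myc and 1190.1 in vector, Rplp2 was 2314, 1883, 1722 and 979 FPKM, and Rpl12 2409.8, 2359, 1914 and 1125 FPKM in the same order of libraries. The stalk genes split by library: Rplp0, Rplp2 and Rpl12 were higher in MycN than in Minimal Myc, and Rplp1 was higher in Minimal Myc. Their median difference from vector was 1.14 with Myc, 0.98 with MycN and 0.79 with Minimal Myc.

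Around the tunnel through which the new protein leaves the large subunit lie Rpl4 and Rpl17, which line it, Rpl39 near its end, and Rpl19, Rpl23a, Rpl26, Rpl31 and Rpl35 at its rim. Rpl23a, a docking site for the signal recognition particle, was 2372 FPKM in Myc, 1529 in MycN, 2159 in Minimal Myc and 852 in vector, and was among the 3 large subunit members furthest above vector in Myc (1.48). Rpl26 was 129 FPKM in Myc, 46.5 in MycN, 94.2 in Minimal Myc and 47.1 in vector. It was high in Myc, intermediate in Minimal Myc and level with vector in MycN. Rpl39 was 1133 FPKM in Myc, 889 in MycN, 1979 in Minimal Myc and 685 in vector, and stood apart from the rest in Minimal Myc. The other tunnel genes differed from vector by 0.95 (Rpl19) to 1.21 (Rpl4) in Myc, leaving out Rpl17 at 0.89; in MycN the 8 ranged from -0.018 to 1.05, and in Minimal Myc from 0.68 to 1.53.

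At the peptidyl transferase centre and the bridge between subunits, Rpl3 was 757 FPKM in Myc, 644 in MycN, 855 in Minimal Myc and 394 in vector, and Rpl8 was 2051, 1622, 1820.2 and 1126 FPKM in that order. Rpl10, which is added late and completes the tRNA site, was 1219.7 FPKM in Myc, 779 in MycN, 1640.2 in Minimal Myc and 545 in vector. Rpl41, a tiny protein at the bridge, was 3419 FPKM in Myc, 2191 in MycN, 2899 in Minimal Myc and 1768 in vector. Rpl10 and Rpl3 had their highest level in Minimal Myc, and Rpl8 and Rpl41 in Myc. All 4 were lowest in vector.

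In the small subunit the mRNA channel is lined by Rps2 and Rps3 at its entry, Rps26 and Rps28 at its exit and Rps23 at the decoding centre. Rps2 was 4562 FPKM in Myc, 4394 in MycN, 2934 in Minimal Myc and 2236 in vector. It was nearly as high in MycN as in Myc, and of all small subunit members it was the least above vector in Minimal Myc (0.39). Rps28 was 3575 FPKM in Myc, 3889 in MycN, 3044 in Minimal Myc and 1906 in vector, with MycN the highest. Rps26 was 2087 FPKM in Myc, 1341 in MycN, 1666 in Minimal Myc and 706 in vector, and Rps23 was 1224 FPKM in Myc, 674 in MycN, 842 in Minimal Myc and 385 in vector. Those last genes were among the 3 small subunit members furthest above vector in Myc (1.56 and 1.67), where MycN lay well below Myc. Rps3 was 421 FPKM in Myc, 302 in MycN, 326 in Minimal Myc and 197 in vector.

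Many small subunit genes followed one order, with Myc highest, then Minimal Myc, MycN and vector. Rps6, whose protein is phosphorylated by S6 kinases when growth signals are on, was 773 FPKM in Myc, 457 in MycN, 649 in Minimal Myc and 284 in vector. Rps12, a protein of the beak of the small subunit and a member with a large difference in Myc (1.51), was 2699.8 FPKM in Myc, 1585 in MycN, 1893 in Minimal Myc and 948 in vector. Rps27a, made as a fusion with ubiquitin, was 1623 FPKM in Myc, 1180.3 in MycN, 1185 in Minimal Myc and 506 in vector, and was the small subunit gene furthest above vector in both Myc (1.68) and MycN (1.22). For Rps27a the levels in Minimal Myc and MycN were nearly equal. The genes of the head and tRNA sites (Rps15, Rps18, Rps19, Rps25 and Rpsa) differed from vector by 0.96 to 1.35 in Myc, 0.65 to 0.99 in MycN and 0.79 to 1.18 in Minimal Myc. Rps14, of the platform, did not follow that order and was the small subunit gene nearest to vector in MycN. It was 1677 FPKM in Myc, 1194 in MycN, 1762 in Minimal Myc and 1130.2 in vector, with a difference of 0.57 in Myc and 0.079 in MycN. Of 9 genes listed from the larger set mutated in the human disorder Diamond-Blackfan anaemia, 8 were at least 2-fold higher than vector in Myc (11.2% of all genes). In MycN 0 were (7.65%), and in Minimal Myc 3 (13.6%). All 9 are members, and of the 82 measured members 55, 10 and 27 were at least 2-fold higher in the same order. Rps28 and Rpl31, which are mutated in that disorder but are not among the 9, differed from vector by 1.03 and 1.05 in MycN.

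Among large subunit members, Rpl37a and Rpl22 were far above vector in MycN, with differences of 1.16 and 1.12. Those nearest to vector in Myc were Rpl30 (0.61), Rpl7a (0.68) and Rpl39 (0.73). In Minimal Myc they were Rpl7l1 (0.40), Rpl23 (0.52), another protein known to bind Mdm2, and Rpl38 (0.59), mutated in the tail-short mouse. In that library, Rps15a (0.60) came after Rps2 among small subunit members. The sets nearest to vector thus differed from library to library. In MycN, Rps27 (0.18) came after Rps14, while Rps19 (0.99) was near the top. Members below vector were found in MycN alone, and were Rpl34, Rpl30, Rpl26 and Rpl7a (18.2% of all genes were lower by any amount in MycN). Rpl34 was 22.6 FPKM in Myc, 10.5 in MycN, 27.4 in Minimal Myc and 12.6 in vector, Rpl30 was 82.8 FPKM in Myc, 50.4 in MycN, 114 in Minimal Myc and 53.8 in vector, and Rpl7a was 1095 FPKM in Myc, 676 in MycN, 1138 in Minimal Myc and 682 in vector. In MycN these genes, apart from Rpl34, lay within 0.1 of vector on the log2 scale.

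Among the paralogs, Rpl22l1 stood out in Myc. Rpl22l1, a paralog that can replace Rpl22 in the ribosome, was 143 FPKM in Myc, 62.2 in MycN, 71.2 in Minimal Myc and 38.0 in vector, and its difference of 1.89 in Myc was the highest of any member in that library. In MycN and Minimal Myc its difference was close to the median of all members (0.70 and 0.89). Rpl22, by comparison, was 234 FPKM in Myc, 197 in MycN, 192 in Minimal Myc and 89.9 in vector. Rpl7l1, a factor of large subunit assembly, was 98.2 FPKM in Myc, 89.0 in MycN, 59.7 in Minimal Myc and 45.0 in vector, and Rps27l, the paralog of Rps27 known as a p53 target, was 344 FPKM in Myc, 237 in MycN, 435 in Minimal Myc and 176 in vector. Rpl7l1 was lowest among the Myc proteins in Minimal Myc, and Rps27l was highest there. Rpl36al was 363, 268 and 334 FPKM in Myc, MycN and Minimal Myc, against 202 in vector, and Rps4y2, a copy of Rps4x, was 17.4, 12.1 and 20.3 FPKM, against 9.45. Rpl10l is listed at 0 in Myc and MycN and was under 0.03 FPKM elsewhere.

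Ribosomal protein genes have many processed copies in the genome, and single values can depend on how reads were shared among them. The lowest standard members were Rps27 at 8.22 FPKM in Myc, 6.36 in MycN, 31.8 in Minimal Myc and 5.50 in vector, Rpl34 as above, and Rps15a at 52.8 FPKM in Myc, 38.0 in MycN, 42.6 in Minimal Myc and 27.8 in vector. For Rpl34 a row marked as a pseudogene, Rpl34-ps1, stood at 1329 FPKM in Myc, 631 in MycN, 1277 in Minimal Myc and 634 in vector. Summed with Rpl34 it gave 1352 FPKM in Myc, 642 in MycN, 1305 in Minimal Myc and 647 in vector, a level like that of other members, with MycN again next to vector. Rps15a-ps4 and Rps15a-ps6 were at 41.0 and 57.2 FPKM in vector, above Rps15a itself, and Rpl31-ps12 was at 165 against 194 for Rpl31. Rpl34, Rps15a and Rpl31 are therefore uncertain as single values. The 8 measured members with a mean below 100 FPKM (Rpl22l1, Rpl26, Rpl30, Rpl34, Rpl7l1, Rps15a, Rps27 and Rps4y2) include Rpl34 and Rps15a. Among the rows used here no such copy was found for the other 6, for which read sharing was not tested. For Rps27, the 2.34 in Minimal Myc was the largest difference of any member from vector in any of the 3 libraries, and rests on a row of 31.8 FPKM, against 5.50 in vector. Without these 8 genes the counts at least 2-fold higher were 52 with Myc, 10 with MycN and 23 with Minimal Myc.

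NanoString counts molecules by hybridization, without sequencing, and gave 4 members in the same libraries. Rplp0 had a signal of 155127 in Myc, 99106 in MycN, 95291 in Minimal Myc and 78774 in vector. Rpl19 had 85252, 50619.9, 47443 and 46894, and Rpl27a 3890.5, 2279, 1956 and 1457 in the same order. In Myc all 4 were about as far above vector by NanoString as by unscaled FPKM, with NanoString ratios of 1.97 for Rplp0, 1.82 for Rpl19, 2.67 for Rpl27a and 2.33 for Rpl10, beside FPKM ratios of 2.27, 1.94, 2.52 and 2.24. In the authors' scaled FPKM the ratios in Myc were larger, at 4.63, 3.95, 5.14 and 4.57 in the same order of genes. In MycN the NanoString ratios were smaller than the FPKM ratios in all 4: 1.26 beside 2.02 for Rplp0, 1.08 beside 1.68 for Rpl19, 1.56 beside 1.81 for Rpl27a, and 1.02 beside 1.43 for Rpl10. In Minimal Myc they were 1.21 beside 1.66 for Rplp0, 1.01 beside 1.61 for Rpl19, 1.34 beside 1.84 for Rpl27a and 2.16 beside 3.01 for Rpl10. A NanoString ratio of at least 2 was reached by 2 of the 4 members in Myc (50% of the 30 genes of that assay), by 0 in MycN (6.67% of the 30) and by 1, Rpl10, in Minimal Myc (6.67% of the 30). Over all 30 genes the median NanoString ratio to vector was 2.04 with Myc, 1.28 with MycN and 1.23 with Minimal Myc. Their median ratio by unscaled FPKM was 1.92, 1.71 and 1.65. The labels do not state how NanoString values were normalized. For these 4 members, and in the median of all 30 genes, the difference from vector in MycN and Minimal Myc was smaller by NanoString than by unscaled FPKM. The part of normalization in this was not tested.

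**Figure D3:**
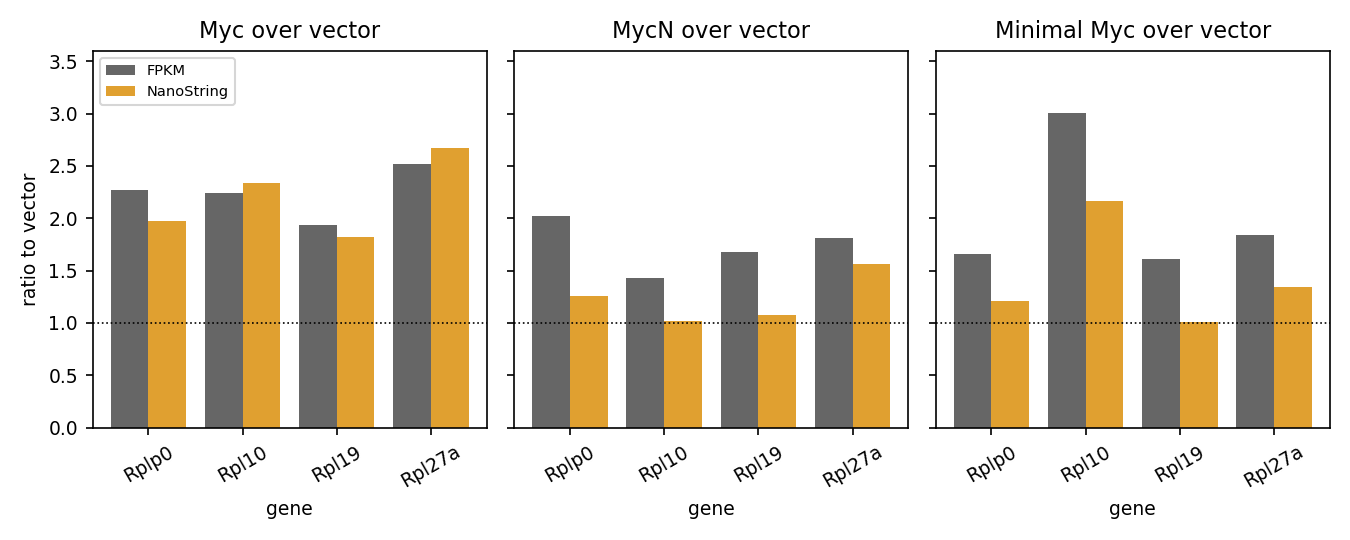
Ratio to vector of 4 ribosomal protein genes by FPKM (grey) and by NanoString (yellow) in Myc, MycN and Minimal Myc, with the dotted line at a ratio of 1. In Minimal Myc, Rpl10 stands above the other 3 genes by both assays, at 3.01 by FPKM and 2.16 by NanoString.

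Rpl10 was the exception in Minimal Myc by both assays. Its NanoString signal was 56791 in Myc, 24724 in MycN, 52642 in Minimal Myc and 24354 in vector. Minimal Myc was therefore 2.13-fold MycN by NanoString and 2.10-fold by FPKM, while Rplp0, Rpl19 and Rpl27a were at 0.962, 0.937 and 0.858 by NanoString. Rpl10 lies on the X chromosome, as do Rps4x, Rpl36a and Rpl39. This grouping by chromosome was made after the values were seen.

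The 4 X-linked members stood together in Minimal Myc. Rps4x, a protein of the body of the small subunit, was 1023 FPKM in Myc, 665 in MycN, 1303 in Minimal Myc and 418 in vector, and Rpl36a was 733 FPKM in Myc, 489.6 in MycN, 899 in Minimal Myc and 321 in vector. Each of Rpl10, Rps4x, Rpl36a and Rpl39 had its highest level in Minimal Myc, 1.48 to 1.64 above vector, where the 73 autosomal standard genes had a median of 0.90 and 1 of them, Rps27, lay above the lowest X-linked gene. Against MycN the X-linked genes differed by 0.87 to 1.15, and the autosomal median was 0.16. In Myc against vector they did not stand apart, with medians of 1.17 for the X-linked and 1.16 for the autosomal genes. Without the X-linked members the counts at least 2-fold higher than vector were 52 with Myc, 10 with MycN and 23 with Minimal Myc.

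The same held for other genes of that chromosome. The 352 measured X-linked genes that are not ribosomal protein genes had a median difference of 0.60 in Minimal Myc against vector, 0.60 against Myc and 0.74 against MycN, each less the median of all genes, and of 0.0077 in Myc against vector. Other chromosomes also differed as wholes. Chromosome 18, with Rps14 and Rpl17, stood at -0.42 in MycN against vector over 298 other genes, and its members at -0.50 relative to the median of the 77. Chromosome 15, with Rpl3, Rpl8, Rpl30 and Rpl37, stood at -0.25 in Myc against vector, and its members at -0.36. Chromosome 10, with Rps12, Rps15, Rps26 and Rpl41, stood at 0.25 in that comparison, and its members at 0.23. Chromosome 17, which carries Rps2, Rps28 and 4 other members, stood at -0.25 in Minimal Myc against MycN, and its members at -0.23. Chromosome 3 went the other way in that comparison, with -0.067 for other genes and 1.14 for Rps27, Rpl34 and Rps3a1, of which Rps27 and Rpl34 average under 100 FPKM. Chromosome 11, with 7 members, did so too, with 0.13 for other genes and -0.20 for its members in Myc against vector, and 0.11 and -0.13 in Minimal Myc against MycN. These chromosomes and comparisons were picked after their values were seen. Over all chromosomes with a member, the median of members and that of other genes lay on the same side for 13 of 19 in Myc, 12 in MycN, 14 in Minimal Myc against vector, 16 in Minimal Myc against Myc and 12 in Minimal Myc against MycN.

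Across the 77 standard members, the difference of a member and the median difference of the other genes on its chromosome had a Pearson's r of 0.513 with Myc, 0.482 with MycN and 0.526 with Minimal Myc against vector, and 0.562 in Minimal Myc against MycN, with a Spearman's rho of 0.606 in the last. Over the 73 autosomal members alone, Pearson's r was 0.525, 0.474, 0.308 and 0.424 in the same order. These describe genes that share the same pair of libraries and, by chromosome, the same value on 1 axis, and genes are not replicates. Chromosomes were matched for 11622 of 11640 genes. The number of copies of each chromosome in these cultures was not measured here, so its part in any difference between single members was not tested.

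**Figure D4:**
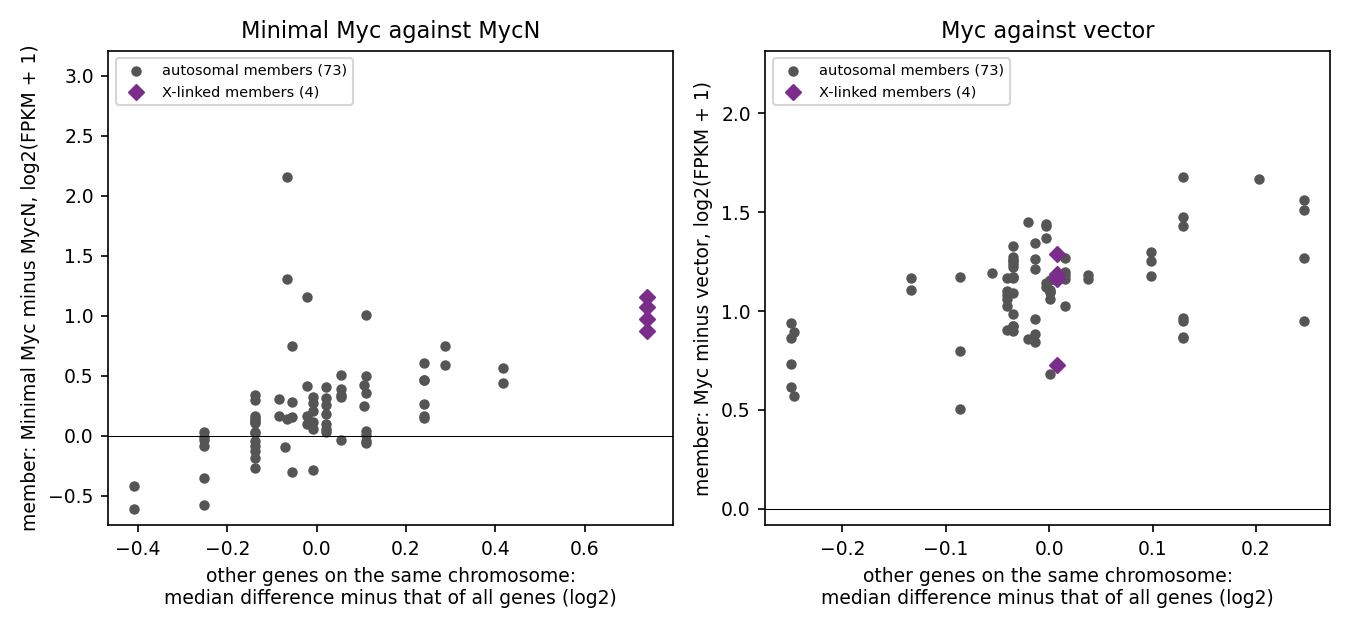
Difference in log2(FPKM + 1) of each standard ribosomal protein gene (vertical) against the median difference of the other genes on its chromosome less that of all genes (horizontal), for Minimal Myc against MycN and Myc against vector. The 4 X-linked members (diamonds) lie to the right in Minimal Myc against MycN, at 0.74 on the horizontal axis, and in the middle in Myc against vector, at 0.0077.

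Between the Myc proteins, the members were lower in MycN than in Myc in 80 of 82 cases (56.4% of all genes), with 3 at least 2-fold lower (2.74% of all genes), 0 at least 2-fold higher (1.95% of all genes) and a median difference of -0.44, or -0.38 less the median of all genes. The 3 were Rpl26, Rpl22l1 and Rpl34. Higher in MycN than in Myc were 2 (43.6% of all genes), Rps28 among them. Of the 715 genes of at least 100 FPKM, members among them, 570 were lower in MycN than in Myc. Less the median of those 715 genes, the median of members in MycN against Myc was -0.17. In Minimal Myc against Myc, 62 of 82 were lower (52.6% of all genes) and 20 higher (47.3% of all genes), with a median difference of -0.27 and 1 gene, Rps27, at least 2-fold higher (4.48% of all genes). At least 2-fold lower were 0 (2.16% of all genes). In Minimal Myc against MycN, 63 were higher (53.3% of all genes) and 19 lower (46.7% of all genes), with a median of 0.17. Of these, 6 were at least 2-fold higher (6.94% of all genes) and 0 at least 2-fold lower (3.69% of all genes). The 6 were Rpl10, Rpl39, Rpl26, Rpl30, Rpl34 and Rps27, of which the first pair are X-linked and the others average under 100 FPKM. Set against the all-gene median this last comparison was 0.13, and set against genes of at least 100 FPKM it was -0.070, so its direction depends on the genes it is read against.

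Proteins of the ribosome outside the naming rule had like levels. Fau, whose product is a fusion that releases the small subunit protein S30, was 1519 FPKM in Myc, 1422 in MycN, 1439 in Minimal Myc and 777 in vector. Gnb2l1, the scaffold protein Rack1 of the small subunit head, was 1003 FPKM in Myc, 629 in MycN, 922 in Minimal Myc and 436 in vector. Both were highest in Myc and lowest in vector. Of 16 genes for chaperones and importers that escort ribosomal proteins, 8 were at least 2-fold higher than vector in Myc (11.2% of all genes), 2 in MycN (7.65%) and 4 in Minimal Myc (13.6%), and 0 lower in Myc. Less the median of all genes, their medians were 0.52, 0.077 and 0.33, so that in MycN they lay close to all genes. Tsr2, the escort of Rps26, was 18.7 FPKM in Myc, 9.63 in MycN, 17.6 in Minimal Myc and 5.60 in vector, and Ipo5, an importin, was 76.4 FPKM in Myc, 35.6 in MycN, 91.8 in Minimal Myc and 28.1 in vector. Aamp was the only one of the 16 at least 2-fold above vector in all 3 libraries, at 1.02, 1.15 and 1.11.

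Of 18 other genes known for a TOP in human cells or mouse, 7 were at least 2-fold higher than vector in Myc (11.2% of all genes), 1 in MycN (7.65%) and 4 in Minimal Myc (13.6%). The count in MycN is no higher a share than that of all genes. Less the median of all genes, their medians were 0.42, 0.13 and 0.28, against 0.68, 0.29 and 0.44 for the ribosomal protein genes. Eef1b2, a subunit of elongation factor 1, was at least 2-fold higher in all 3, at 303 FPKM in Myc, 291 in MycN, 261 in Minimal Myc and 118 in vector. Eef1a1, the most abundant of the 18, was 4218 FPKM in Myc, 3482 in MycN, 3652 in Minimal Myc and 1778 in vector. Vim, the intermediate filament gene of fibroblasts, was lowest in MycN, at 830.0 FPKM in Myc, 476 in MycN, 750.3 in Minimal Myc and 707 in vector. Within the ribosomal protein genes themselves, the 13 with a TOP at the annotated start had medians of 1.11 with Myc, 0.68 with MycN and 0.81 with Minimal Myc against vector. The 44 other standard genes with a window had 1.17, 0.74 and 0.94. At least 2-fold higher in MycN were 0 of the 13 and 7 of the 44 (7.65% of all genes).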

How the data were processed

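Polyadenylated RNA of 4 cultures was sequenced with strand kept, per the labels' protocols. The tools named in the submitters' processing notes are Cufflinks 2.2.0 and TopHat2 2.0.11, and the build named is mm9, without role or order. The authors deposited FPKM per transcript, and a second table of FPKM multiplied by 2.04 in Myc, 1.30 in MycN, 1.28 in Minimal Myc and 1 in vector. Of each deposited file, 32 of 26608 rows hold NanoString signal. FPKM carry no depth, so no counting interval is given.

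Identical rows of a gene were merged and others summed. Genes averaging 1 FPKM or more were kept, without 310 small RNA genes. Differences are of log2(FPKM + 1), which understates those of low genes. The calculation, in Python 3.11.15 with pandas 2.3.3, was tested on simulated data. Members, lists and roles were chosen with earlier results of these data known. Named genes are those of the fixed role groups, the 3 highest and 3 lowest per subunit and comparison with vector, the 3 highest and lowest by level, paralogs, members listed at 0, partners, and listed genes 2-fold apart from vector in all 3 libraries; other genes named were chosen after their values were seen, and some genes that meet the rule are not reported here. Chromosomes and start windows came from RefSeq on GRCm38.p6. Alternatives were other pseudocounts, filters, tables, folds, members and backgrounds.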

Additional observations from a re-analysis of the deposited data

How the results depend on the processing

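With 1 library per group and unknown depth, no spread says how far a value may move by chance, so every median that changed at 2 decimals is given here. No paired analysis was possible because each group has 1 library. Values follow the order Myc, MycN, Minimal Myc against vector, then, for medians, MycN and Minimal Myc against Myc and Minimal Myc against MycN. The counts at least 2-fold higher than vector (55, 10 and 27) became 82, 51 and 73 in the scaled table. They became 80, 57 and 79 at 1.5-fold, and 6, 0 and 5 when centred on all genes. They stayed within 1.5 times under the other settings. The median of members less that of all genes was 0.77, 0.34, 0.49, -0.43, -0.29 and 0.14 in the scaled table. It was 0.61, 0.24, 0.38, -0.37, -0.24 and 0.12 with a pseudocount of 0.1, and 0.91, 0.49, 0.62, -0.39, -0.25 and 0.14 with 10. Without a filter it was 1.09, 0.67, 0.89, -0.43, -0.25 and 0.17, because more low genes enter the background, and with a mean of at least 10 FPKM 0.58, 0.24, 0.33, -0.30, -0.26 and 0.041. For standard genes alone it was 0.69, 0.30, 0.45, -0.37, -0.24 and 0.12. Against genes of at least 100 FPKM, members among them, it was 0.40, 0.23, 0.18, -0.17, -0.25 and -0.070. The last had its sign turned because a larger median was subtracted. The median of members was 0.17, and that of the background was 0.046 over all genes and 0.24 over genes of at least 100 FPKM. Why these backgrounds differ was not tested. Chosen after seeing the data, leaving out X-linked members gave 0.66, 0.30, 0.42, -0.37, -0.25 and 0.12, and leaving out members below 100 FPKM gave 0.69, 0.31 and 0.43. The large less the small subunit median was -0.043 in Minimal Myc and -0.069 with a pseudocount of 10; the highest row of a gene in place of the sum changed none of these results at that precision.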

Other observations

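Introns of many ribosomal protein genes encode small nucleolar RNAs, which guide changes to ribosomal RNA. The 28 standard genes listed as their hosts had a median difference from vector of 1.13 with Myc, 0.77 with MycN and 0.89 with Minimal Myc. The other 49 standard genes had 1.16, 0.68 and 0.93. Hosts and other genes thus lay within 0.1 of each other on the log2 scale. The letters AAGATGGCG, bound by the factor Yy1, stood on either strand in 6 of 76 member start windows (7.89%), against 1.40% of all windows. The letters TATAAA, known as a core promoter element, stood on either strand in 7 (9.21%), against 13.6%.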
